A study of Homo sapiens with 2 samples.

Results

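Integrins and the proteins of focal adhesions were compared between SUDHL6 and HT, established human cell lines of diffuse large B cell lymphoma, each measured on 1 Affymetrix exon array. The members were 51 genes chosen by family: integrin alpha and beta subunits, the talins, kindlins and RAP1 proteins that switch integrins on, and the scaffolds, actin linkers and kinases that gather at their tails. Of these, 43 had a probe set that named that gene alone, among 14232 such genes on the array, and the probe set with the highest mean was used where a gene had several. Both lines were untreated and were grown in serum-containing RPMI medium, and the series belongs to a study of a drug-like inhibitor of PRC2, a Polycomb complex that keeps genes silent. With 1 line on each side, a difference describes these lines and not a class of lymphoma.

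Integrins are cell surface receptors made of 1 alpha and 1 beta subunit, and they hold cells to extracellular matrix or to other cells. In lymphocytes they are normally kept inactive until RAP1 and its effector bring talin to the beta tail, after which kindlin, vinculin and other linkers tie the receptor to actin and kinases of the focal adhesion kinase family signal from it. In germinal centres, B cells use ITGAL with ITGB2 (LFA-1) and ITGA4 with ITGB1 (VLA-4) to hold on to follicular dendritic cells.

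Values are log2 expression after RMA, which subtracts background, brings arrays to a common distribution and merges the probes of each probe set. They ran from 0.33 to 13.99 in SUDHL6 and from 0.38 to 13.97 in HT, with medians of 4.57 in SUDHL6 and 4.58 in HT. Levels were compared between the lines within a gene, not between genes. A floor was set for each line at the 95th percentile of 225 olfactory receptor genes, which lay at 3.81 for SUDHL6 and 4.11 for HT. To be counted as different, a gene needed a log2 difference (SUDHL6 minus HT) of 1 or more in size, and its larger value had to lie at or above the floor of that line. Of the 225 olfactory receptor genes, 18 reached the floor judged by the larger value, and 5 (2.22%) were counted. The differences of the 225 ran from -1.96 to 4.61, so a large difference also occurred among the genes that set the floor. Folds are linear ratios of the line with more signal to the line with less, and "at least" marks those computed against the floor because the smaller value lay under it. With 1 array per line there was no replicate spread, so no test was made, and the number of arrays limits the precision of every value. An array of many cells also cannot tell fewer expressing cells from less RNA per cell.

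Most B cell markers lay above the floor in both lines, which does not by itself show that they were expressed. Of 9 B cell markers with a value, 9 reached the floor judged by the larger value and 8 did so in both lines, the exception being CD72 (5.92 in SUDHL6 and 3.76 in HT). The 8 included the surface gene MS4A1 (11.33 in SUDHL6 and 8.75 in HT) and CD79A (6.47 in SUDHL6 and 6.58 in HT), a chain of the B cell receptor. Of 8 germinal centre markers with a value, 7 reached the floor in both lines. Some markers of the cell type itself differed between the lines. Of the 9 B cell markers 3 were counted as different (MS4A1 and CD72 higher in SUDHL6, EBF1 higher in HT). Of the 8 germinal centre markers 4 were (GCSAM and CD38 higher in SUDHL6, SERPINA9 and MEF2C higher in HT). These shares of short lists were 33.3% and 50%, against 8.12% of all genes. Of the 9405 genes that reached the floor, 1155 were counted. Of the T cell, myeloid, platelet and epithelial markers, 0 were counted as different, but some reached the floor. They included LCK (5.65 in SUDHL6 and 6.62 in HT) and CD7 (5.49 in SUDHL6 and 5.73 in HT) of the 10 T cell markers, 4 of which did so. Of 7 epithelial markers 3 did, among them KRT8 (8.27 in SUDHL6 and 8.12 in HT). In the fibroblast and endothelial list, 2 of 12 markers (16.7%) were counted as different, both higher in HT. They were LUM (2.38 in SUDHL6 and 6.22 in HT) and DCN (2.09 in SUDHL6 and 5.05 in HT), proteoglycans of connective tissue. The values of that list spanned 2.09 to 4.55 in SUDHL6 and 2.09 to 6.22 in HT, with summed linear signals of 126 in SUDHL6 and 222 in HT. COL1A1 (4.47 in SUDHL6 and 4.44 in HT) and COL1A2 (4.55 in SUDHL6 and 4.61 in HT) reached the floor in both lines. The other 8, among them PDGFRB, THY1, PECAM1 and CDH5, lay below the floor in both lines, with differences from -0.36 to 0.28. The gap between the summed signals thus came from LUM and DCN and not from the list as a whole. LUM and DCN moved in the same direction as ITGB1 and PALLD below, and their part in those differences was not tested.

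The set was alike in both lines for most members and far apart for a few. TES, NEDD9, VCL and ITGAL were counted as higher in SUDHL6, 4 of 43, where 3.50% of all 14232 genes were. ITGB1, PALLD and PTK2 were counted as higher in HT, 3 of 43, where 4.62% of all genes were. In either direction the share was 16.3% of the members and 8.12% of all genes. Among genes reaching the floor, 7 of 27 members and 1155 of 9405 genes were counted. At a difference of 2 or more, TES and NEDD9 remained in SUDHL6 (1.17% of all genes) and ITGB1 and PALLD in HT (1.08%). For NEDD9 and PALLD this rests on a smaller value under the floor. With values raised to the floor their differences were 1.97 and -1.63, both under 2 in size. Of the other 36, 20 reached the floor with a difference under 1, and 16 did not reach it, judged by the larger value, and their differences lay between -0.40 and 0.29. The median difference was 0.00 over the 43 and -0.04 over all genes, and 21 members had a higher and 21 a lower value in SUDHL6.

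**Figure D1:**
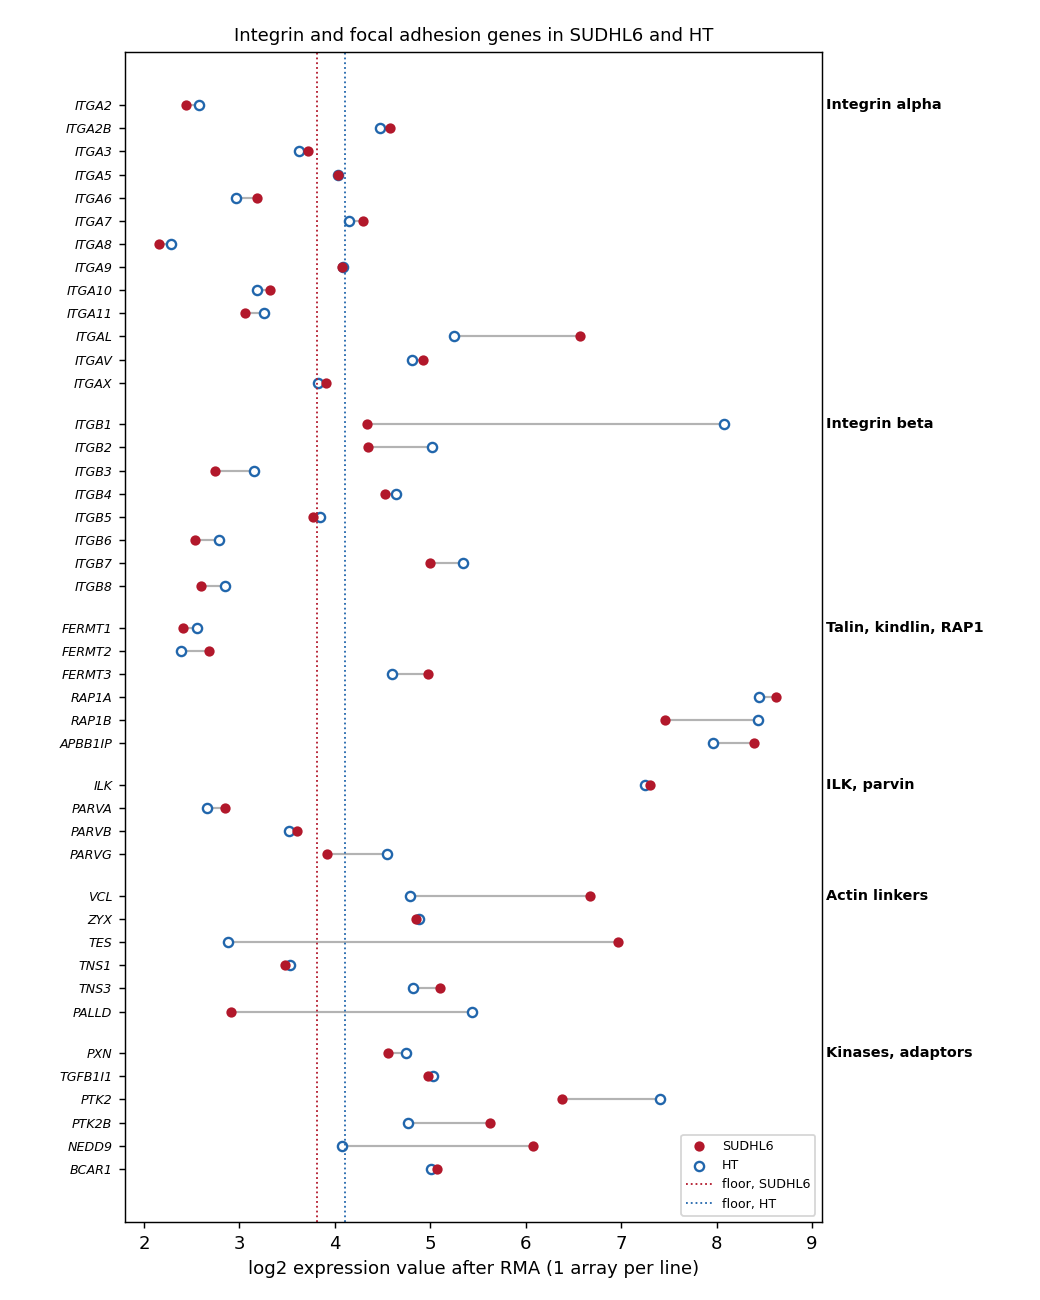
Log2 expression value (x axis) of each of the 43 members (rows, grouped by role) in SUDHL6 (filled red points) and HT (open blue points), 1 array each; dotted lines mark the floor of each line, 3.81 for SUDHL6 and 4.11 for HT. The points lie close together in most rows, and the rows of ITGB1, TES and PALLD are spread widest; levels are comparable within a row only.

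Among the integrin alpha subunits, ITGAL was counted as higher in SUDHL6 and no other was counted. ITGAL, the alpha chain of LFA-1, which binds the ICAM proteins, stood at 6.57 in SUDHL6 and 5.25 in HT. It differed by 1.32 and was 2.5-fold higher in SUDHL6. ITGAV, the alpha chain of most vitronectin receptors, was at 4.92 in SUDHL6 and 4.81 in HT. ITGA5, which pairs with ITGB1 as the fibronectin receptor, was at 4.03 in both lines, above the floor of SUDHL6 and under that of HT. Its value was exactly the same on both arrays, as it was for 681 of the 22011 probe sets, and the reason was not examined. ITGAV and ITGA5 were nearly level between the lines, as were the remaining alpha chains. Of the 13 alpha genes with a value, 6 reached the floor, judged by the larger value. ITGA2B, the platelet fibrinogen receptor chain, had 4.58 in SUDHL6 and 4.47 in HT. ITGA7, a laminin receptor chain of muscle, had 4.30 in SUDHL6 and 4.15 in HT, and ITGAX, a chain of myeloid integrins, had 3.91 in SUDHL6 and 3.82 in HT. The alpha chains other than ITGAL differed by no more than 0.21 either way. The partners of ITGB1 below the floor included ITGA2 (2.44 in SUDHL6 and 2.58 in HT), ITGA3 (3.72 in SUDHL6 and 3.62 in HT), ITGA6 (3.18 in SUDHL6 and 2.97 in HT), ITGA8 (2.16 in SUDHL6 and 2.28 in HT), ITGA10 (3.32 in SUDHL6 and 3.19 in HT) and ITGA11 (3.06 in SUDHL6 and 3.26 in HT). ITGA9, which binds tenascin and VCAM1, stood at 4.08 in SUDHL6 and 4.09 in HT, above the floor of SUDHL6 and just under that of HT. ITGA1, ITGA4, ITGAD, ITGAE and ITGAM had no probe set of their own.

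The beta subunits held the largest difference of any receptor gene. ITGB1, the partner of 12 of the alpha chains listed here and the receptor chain for fibronectin, collagens and laminins, stood at 4.34 in SUDHL6 and 8.08 in HT. The difference of -3.74 made it 13.4-fold higher in HT, and 37 of 14232 genes had a difference at least as low. Both values were above the floor of their line. They came from the only probe set naming ITGB1 alone. Another one, shared with ADGRE3, lay under both floors and was nearly level (SUDHL6 2.88, HT 2.9). The ITGB1 difference thus rests on a single probe set, and how well the shared one reads ITGB1 was not tested. The values of all 8 beta genes were lower in SUDHL6, also after each of the rescalings tried, but 7 of the 8 differed by less than 1 and 4 did not reach the floor. ITGB2, the common chain of leukocyte integrins and the partner of ITGAL, was at 4.35 in SUDHL6 and 5.02 in HT (difference -0.66, 1.58-fold higher in HT). The chains of LFA-1 therefore pointed in opposite directions, ITGAL toward SUDHL6 and ITGB2 toward HT, the second by less than 1. ITGB7, which pairs with ITGA4 to bind MADCAM1 in the gut, was at 5.0 in SUDHL6 and 5.34 in HT. ITGB4, the hemidesmosome chain, was at 4.53 in SUDHL6 and 4.64 in HT. ITGB3, ITGB5, ITGB6 and ITGB8, partners of ITGAV, did not reach the floor, and their values ran from 2.54 to 3.77 in SUDHL6 and from 2.79 to 3.84 in HT.

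The RefSeq promoter of ITGB1 is shown because this gene had the lowest difference of the set. The 250 bases before its first-listed start, at chr10:32958231-32958480 of GRCh38.p14 on the minus strand, read 5′ to 3′ as follows, with GC boxes (GGGCGG, either strand) and CCAAT boxes (CCAAT, either strand) in capitals.
ITGB1: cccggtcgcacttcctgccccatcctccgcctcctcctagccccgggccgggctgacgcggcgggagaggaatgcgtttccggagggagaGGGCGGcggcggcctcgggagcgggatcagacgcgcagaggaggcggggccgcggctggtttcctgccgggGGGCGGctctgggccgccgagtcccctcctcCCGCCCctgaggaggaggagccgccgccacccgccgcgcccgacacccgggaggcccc
It held 3 GC boxes, no CCAAT box and 32 CG dinucleotides, against a median of 11 CG over 27305 first-listed promoters cut to the same length. GC boxes occurred in 42.3% of those promoters and CCAAT boxes in 33% of them. ITGB1 has 2 starts in that table, and which start either line used was not measured.

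Alpha and beta chains reach the surface as pairs, so the values were also read pair by pair. Of 24 textbook pairs, 18 had a value for both chains. In SUDHL6 both chains reached the floor in 6 pairs, and in HT in 3, which were ITGAL with ITGB2 and ITGAV and ITGA7 with ITGB1. These 3 also had both chains at the floor in SUDHL6. The further 3 in SUDHL6 were ITGA5 and ITGA9 with ITGB1 and ITGAX with ITGB2. They passed there because the floor was lower in SUDHL6, since the 3 alpha chains had nearly the same value in both lines. The pair count is therefore no measure of more integrin pairs in SUDHL6, where ITGB1 itself was lower.

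Members that switch integrins on differed by less than 1. RAP1A, the small GTPase upstream of talin, was at 8.62 in SUDHL6 and 8.44 in HT. RAP1B, its close relative and the main RAP1 form of platelets, was at 7.46 in SUDHL6 and 8.43 in HT, and its difference of -0.97 fell just short of the threshold (1.96-fold higher in HT). The RAP1 forms are near-identical, and cross-hybridisation was not examined, so how signal divides among them is uncertain. APBB1IP, the RAP1 effector that carries talin to the membrane, was at 8.39 in SUDHL6 and 7.96 in HT. FERMT3, the kindlin of blood cells, was at 4.98 in SUDHL6 and 4.60 in HT. The kindlins of other tissues, FERMT1 (2.41 in SUDHL6 and 2.56 in HT) and FERMT2 (2.68 in SUDHL6 and 2.39 in HT), stayed below the floor in both lines. Of the kindlins, FERMT3 alone reached the floor, and it did so in SUDHL6 and HT alike. TLN1 and TLN2, the talins, had no probe set of their own.

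The scaffold of integrin-linked kinase, PINCH and parvin was nearly level in its central member. ILK, the pseudokinase at its centre, stood at 7.30 in SUDHL6 and 7.25 in HT. PARVG, the parvin of blood cells, was at 3.92 in SUDHL6 and 4.55 in HT (difference -0.63, 1.54-fold higher in HT). PARVA (2.85 in SUDHL6 and 2.66 in HT) and PARVB (3.60 in SUDHL6 and 3.52 in HT) did not reach the floor. No member of this scaffold was counted as different, and LIMS1, which encodes PINCH1, had no value of its own.

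The proteins that link adhesions to actin held 3 of the 7 differences, in both directions. TES, testin, a LIM domain protein that binds zyxin and actin filaments, stood at 6.97 in SUDHL6 and 2.88 in HT (difference 4.08). HT lay below its floor, so TES was at least 7.23-fold higher in SUDHL6, and 26 of 14232 genes had a difference at least as high. VCL, vinculin, which binds talin under tension and recruits actin, stood at 6.67 in SUDHL6 and 4.79 in HT (difference 1.88, 3.68-fold), with both values above the floor. PALLD, palladin, an actin-bundling scaffold of stress fibres, went the other way, at 2.91 in SUDHL6 and 5.44 in HT. Its difference was -2.53 and the SUDHL6 value was below the floor, so PALLD was at least 3.1-fold higher in HT. ZYX, zyxin, which binds TES, was level at 4.85 in SUDHL6 and 4.88 in HT. The tensins were likewise close, with TNS3 at 5.10 in SUDHL6 and 4.82 in HT and TNS1 below the floor at 3.48 in SUDHL6 and 3.53 in HT. TES and VCL thus stood apart from ZYX and the tensins in SUDHL6, and PALLD in HT.

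The promoters of TES and VCL are shown because these were the actin linkers counted as higher in SUDHL6. The 250 bases before the first-listed RefSeq starts, both on the plus strand of GRCh38.p14, lie at chr7:116210289-116210538 for TES and chr10:73997866-73998115 for VCL, with the same boxes in capitals.
TES: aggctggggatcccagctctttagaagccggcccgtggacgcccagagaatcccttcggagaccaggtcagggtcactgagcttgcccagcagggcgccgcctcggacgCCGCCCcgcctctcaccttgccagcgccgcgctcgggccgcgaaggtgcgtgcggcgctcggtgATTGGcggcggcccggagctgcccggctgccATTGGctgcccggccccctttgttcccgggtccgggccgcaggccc
VCL: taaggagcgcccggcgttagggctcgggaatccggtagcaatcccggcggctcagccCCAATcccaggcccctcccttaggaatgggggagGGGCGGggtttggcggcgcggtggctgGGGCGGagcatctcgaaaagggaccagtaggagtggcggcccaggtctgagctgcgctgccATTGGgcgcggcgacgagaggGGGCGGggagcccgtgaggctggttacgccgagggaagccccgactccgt
TES held 1 GC box, 2 CCAAT boxes and 28 CG dinucleotides, and VCL 3 GC boxes, 2 CCAAT boxes and 25 CG dinucleotides. The window of ITGB1 held no CCAAT box, while all 3 windows were rich in CG. Whether CCAAT boxes go with the direction of a difference was not tested. PARVG, with more signal in HT, held 1, and APBB1IP, FERMT3 and TNS3, with more in SUDHL6, held none. RAP1B and ITGB7, with more in HT, also held none. The first-listed windows of NEDD9 and PALLD held 4 CG dinucleotides each and neither box, and both genes have 3 starts in the table. The motifs were picked after the sequences were seen, and a match in letters is not a bound site.

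**Figure D2:**
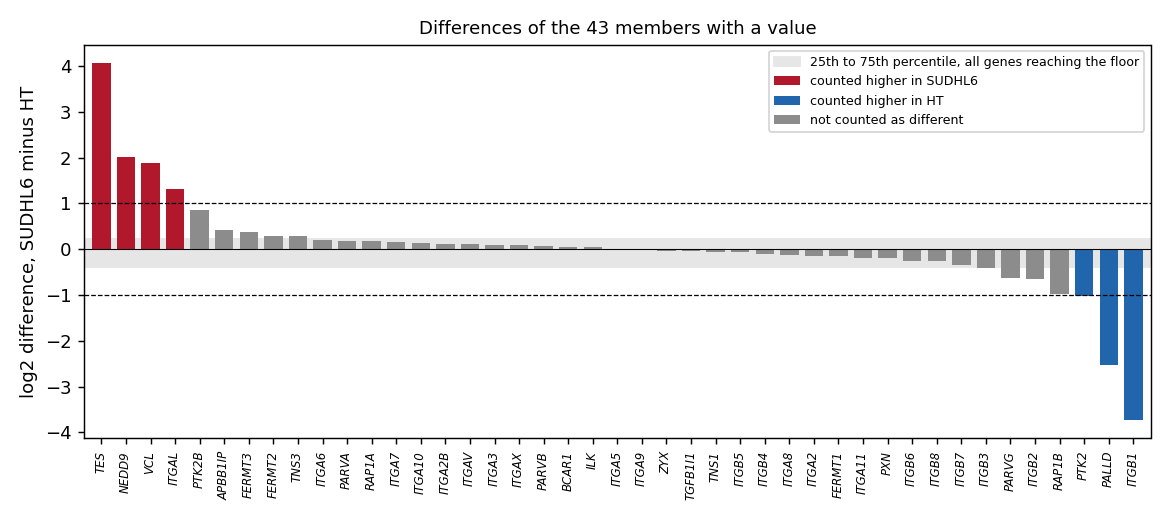
Log2 difference, SUDHL6 minus HT (y axis), of the 43 members sorted from highest to lowest; red bars were counted as higher in SUDHL6, blue bars as higher in HT and grey bars as neither, dashed lines mark 1 and -1, and the grey band runs from -0.38 to 0.22, the 25th to 75th percentile of all genes reaching the floor. TES, NEDD9, VCL and ITGAL stand above the upper line, and ITGB1, PALLD and, at -1.03, PTK2 below the lower line.

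Among kinases and adaptors, NEDD9 was counted as higher in SUDHL6 and PTK2 as higher in HT. NEDD9, a docking protein of the p130Cas family that is also called CAS-L and is phosphorylated after integrin binding, stood at 6.08 in SUDHL6 and 4.08 in HT. The difference was 2.01, and the HT value lay just below its floor, so NEDD9 was at least 3.91-fold higher in SUDHL6. BCAR1, p130Cas itself, was level at 5.07 in SUDHL6 and 5.01 in HT. Of these family members, NEDD9 therefore differed and BCAR1 did not reach a difference of 1. PTK2, focal adhesion kinase, was at 6.38 in SUDHL6 and 7.41 in HT (difference -1.03, 2.04-fold higher in HT), with 680 of 14232 genes at least as low. This call was lost under quantile normalization, loess and median centring, where the difference was -0.93, -0.90 and -0.99 in that order. PTK2B, the related kinase PYK2 of blood cells, was at 5.63 in SUDHL6 and 4.77 in HT (difference 0.86, 1.82-fold), in the opposite direction and under the threshold. PXN, paxillin, which both kinases bind, was at 4.56 in SUDHL6 and 4.75 in HT, and TGFB1I1, the paxillin relative Hic-5, at 4.98 in SUDHL6 and 5.03 in HT. A second probe set of PXN gave 4.16 in SUDHL6 and 4.49 in HT, so its probe sets pointed the same way.

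**Figure D3:**
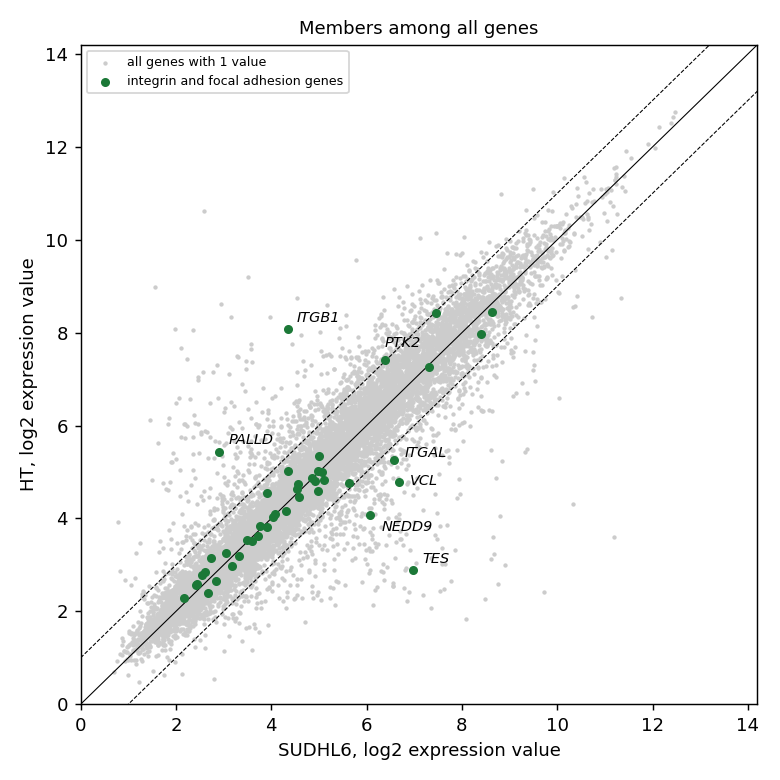
Log2 expression value in SUDHL6 (x axis) against HT (y axis) for all 14232 genes with 1 value (grey) and the 43 members (green); the solid line marks equal values and the dashed lines a difference of 1. ITGB1 and PALLD lie on the HT side and TES, NEDD9, VCL and ITGAL on the SUDHL6 side, with PTK2 on the dashed line.

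Set against genes of a like level, 6 of the 7 differences lay outside the range from the 5th to the 95th percentile and that of PTK2 did not. Among the 1582 genes within 0.5 of the mean level of ITGB1, the 5th and 95th percentiles of the difference were -1.26 and 1.08. For TES they were -0.97 and 1.09 over 2966 genes, and for PALLD -0.89 and 0.78 over 2952 genes. For PTK2, at -1.03, they were -1.35 and 1.02 over 1357 genes. The 7 were counted for a difference of at least 1, and the bounds of these ranges lie around 1 in size. That 6 of them fell outside therefore largely follows from the counting rule and is no separate support. These ranges hold real differences between SUDHL6 and HT as well as measurement error, so they describe the arrays and are no error range.

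Outside the members, the ligands of integrins were nearly the same in both lines. Of 43 listed ligand genes 38 had a value and 19 reached the floor, 1 was counted as different (2.63%, against 8.12% of all genes) and the median difference was 0.00. Only a gene that reaches the floor can be counted, and a smaller part of the ligands than of all genes did. Among genes reaching it, 1 of 19 ligands was counted, against 1155 of 9405 genes. JAM2, a junctional adhesion molecule that binds integrins holding ITGA4, stood at 5.64 in SUDHL6 and 3.93 in HT and was at least 2.87-fold higher in SUDHL6. The ITGAL ligands differed less, with ICAM1 at 4.92 in SUDHL6 and 4.25 in HT, ICAM2 at 4.79 in SUDHL6 and 5.09 in HT and ICAM3 at 5.66 in SUDHL6 and 5.94 in HT. FN1, fibronectin, was at 3.86 in SUDHL6 and 4.50 in HT, and VCAM1, the ligand of VLA-4, was below the floor at 2.36 in SUDHL6 and 2.26 in HT. Ligands on cells other than these lymphoma lines were not measured.

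Partners in signalling and in the actin cytoskeleton differed in both directions. Of 35 signalling partners with a value, 30 reached the floor, 3 were counted as higher in SUDHL6 and 2 in HT, and the median difference was -0.01. The share counted in either direction was 14.3%, against 8.12% of all genes. Among genes reaching the floor it was 5 of 30, against 1155 of 9405. ELMO1, which activates RAC with DOCK proteins, was at 8.32 in SUDHL6 and 6.79 in HT (2.88-fold). RAPGEF1, an exchange factor that loads RAP1, was at 5.81 in SUDHL6 and 4.64 in HT (2.25-fold), and ITGB1BP1, which binds the ITGB1 tail and opposes talin there, was at 6.03 in SUDHL6 and 4.93 in HT (2.14-fold). ITGB1BP1 was thus higher in the line where ITGB1 was lower. ARHGEF6, a RAC exchange factor that binds the parvin PARVB, stood at 2.10 in SUDHL6 and 7.66 in HT and was at least 14.4-fold higher in HT. Its close relative ARHGEF7 was at 6.71 in SUDHL6 and 7.05 in HT, so ARHGEF6 was counted as different and ARHGEF7 was not. FYN, a Src family kinase that acts with focal adhesion kinase, was at 5.02 in SUDHL6 and 8.01 in HT.

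Of 28 actin and adhesion partners with a value, 23 reached the floor, 3 were counted as higher in SUDHL6 and 3 in HT, and the median difference was -0.07. The share counted in either direction was 21.4%, against 8.12% of all genes. Among genes reaching the floor it was 6 of 23, against 1155 of 9405. A larger part of both partner lists than of all genes reached the floor, so level enters into these shares. PDLIM1, a LIM domain protein that binds alpha-actinin, stood at 7.48 in SUDHL6 and 3.55 in HT and was at least 10.3-fold higher in SUDHL6. ROCK2, a kinase that raises actomyosin tension, was at 8.20 in SUDHL6 and 6.68 in HT (2.87-fold). These partners and VCL were higher in SUDHL6, as TES was. RDX, radixin, was at 4.03 in SUDHL6 and 6.09 in HT (4.19-fold higher in HT), while its relative EZR, ezrin, was at 9.50 in SUDHL6 and 8.33 in HT (2.25-fold higher in SUDHL6). CSRP1, a LIM domain protein that binds alpha-actinin and zyxin, was at 4.39 in SUDHL6 and 5.78 in HT (2.63-fold higher in HT). PDLIM5 was at 3.66 in SUDHL6 and 4.88 in HT and was at least 2.1-fold higher in HT.

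**Figure D4:**
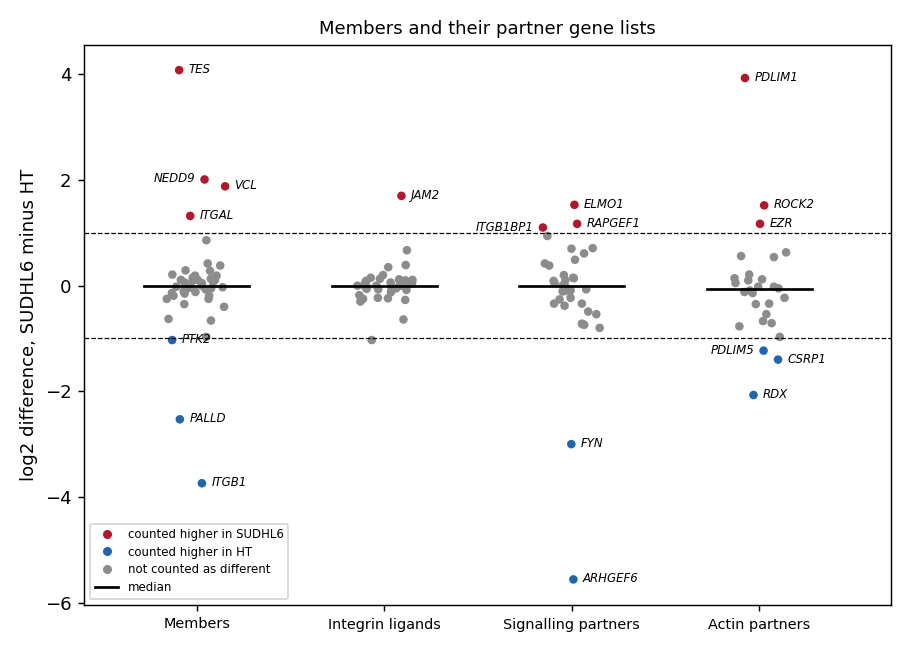
Log2 difference, SUDHL6 minus HT (y axis), of each gene with a value among the members and in 3 partner lists (x axis), with side-to-side scatter added for legibility; red and blue points were counted as higher in SUDHL6 and in HT, grey points as neither, black bars are medians and dashed lines mark 1 and -1. All 4 medians lie between -0.07 and 0.00, and single genes such as TES, PDLIM1, ITGB1, FYN and ARHGEF6 lie far from them.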

How the data were processed

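Total RNA of 2 cell lines, SUDHL6 and HT, was hybridised to Affymetrix exon arrays, 1 array each. Per the submitters' processing notes, the deposited values are log2 expression after RMA with Affymetrix Expression Console; no source used here gives versions, settings or the genome build. Genes were named from the GEO platform annotation, with symbols updated through gene numbers to a RefSeq table of GRCh38.p14. Of 22011 probe sets, 14432 named 1 gene, 2408 several and 5171 none, which left 14232 genes. A log2 difference of at least 1 with the higher value at its line's floor was counted. Members, lists and thresholds were chosen with earlier results of these data known. Named are all members counted as different, the next 8 by size above the floor, partners of named integrin chains and up to 4 genes per partner list; others, such as marker genes, ITGB1BP1, EZR, PDLIM5, ARHGEF7, ICAM1, VCAM1, ILK and ZYX, were chosen for their role or after their values were seen. Promoters were taken from RefSeq, which listed 38 of the 51 members. How often the counting rule errs on measured arrays was not tested. Python 3.11.15, pandas 2.3.3 and statsmodels 0.14.6 (loess) were used. With 1 array per line, no test was possible, and 9 alternatives were tried.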

Additional observations from a re-analysis of the deposited data

Results flagged for a closer look

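Probe sets that name several genes were not used for the members' values above. Of these, 3 that name a member without a value of its own gave signal above the floor of each line. The probe set shared by ITGA4, the alpha chain of VLA-4, and CERKL stood at 7.37 in SUDHL6 and 7.40 in HT, and a further probe set of the same genes at 3.66 in SUDHL6 and 4.08 in HT. The probe set shared by LIMS1 and LIMS3, PINCH genes, stood at 5.55 in SUDHL6 and 5.74 in HT. The probe set shared by TLN1, talin, and CREB3 stood at 5.41 in SUDHL6 and 5.20 in HT. None of these 3 differed by 1, and how much of each signal belongs to the member was not tested.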

How the results depend on the processing

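TES and NEDD9 in SUDHL6 and ITGB1 and PALLD in HT were counted under each of the 9 alternatives. VCL and ITGAL were counted under all but a log2 threshold of 2. That threshold left 2 members higher in SUDHL6 (TES and NEDD9) and 2 in HT (ITGB1 and PALLD). NEDD9 and PALLD passed it only with values under the floor left as they were. Lifting the floor filter can only add genes, and averaging or adding shared probe sets left these members' values unchanged. Those settings are therefore little check on the counts. PTK2 was no longer counted after quantile normalization, loess or median centring, which left 2 members higher in HT. The median over members became -0.30 with values raised to the floor, the gap between the floors that any gene under both floors then takes; the median over all genes was also -0.30. Raising the values moved TES to 2.85 and PALLD to -1.63, again by construction. Of 90 differences of single named members under the alternatives, 88 moved by less than 0.25 and 2, those of TES and PALLD, by more. Many of the 88 were fixed in advance. Averaging over probe sets could not move these members, as each has a single probe set of its own. Adding shared probe sets left every one of their values unchanged, and median centring moved all of them by the same small amount. Those settings are no check on the single differences. Raising values to the floor likewise could not move a member that lay above the floor in both lines. After quantile normalization 4.05% of all genes were counted as higher in SUDHL6 and 3.99% in HT. No paired analysis was possible because each line has 1 array, and for the same reason no replicate could be left out. Values below the floor have no dependable order, and a value above it does not show that a gene was expressed.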

Other observations

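The 7 members counted as different lie on 6 chromosomes, and the differences of their neighbours were mostly small. For each, the 5 nearest protein-coding genes with a value on either side were taken in RefSeq order. Of all genes, 3.50% were counted as higher in SUDHL6 and 4.62% as higher in HT. The 10 neighbours of TES on chromosome 7 had a median difference of 0.11, with 0 counted as different. Those of ITGAL on chromosome 16 had a median of -0.26 and those of PTK2 on chromosome 8 a median of -0.16, also with 0 counted. Around ITGB1 on chromosome 10 the median was -0.20 and CCNY (4.84 in SUDHL6 and 6.51 in HT) was counted as higher in HT. Around VCL on the same chromosome the median was -0.28, opposite in sign to VCL, with CHCHD1 and KAT6B higher in HT. NEDD9 on chromosome 6 had the most neighbours counted, with a median of 0.46 and 3 neighbours higher in SUDHL6. These were ELOVL2, a fatty acid elongase (6.37 in SUDHL6 and 2.67 in HT), and SIRT5, a mitochondrial deacylase (6.33 in SUDHL6 and 4.36 in HT). The third was ERVFRD-1, the envelope gene of an endogenous retrovirus (5.58 in SUDHL6 and 4.52 in HT). Around PALLD on chromosome 4 the median was -0.20. TLL1 there, a secreted metalloprotease, stood at 2.78 in SUDHL6 and 7.14 in HT and was counted as higher in HT. CCNY and TLL1 thus differed in the same direction as the member beside them. These genes were looked up after the members' values were seen, and copy number was not measured.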
